A study of Saccharomyces cerevisiae with 8 samples.

Results

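The nucleotides from G641 to G1140 of yeast 18S rRNA, which cover the central domain of the small-subunit RNA, were taken by their position in the deposited RDN18-2 numbering and not by any measured value. Of these 500 nucleotides, 4 are annotated 2'-O-methylation sites, Am796, Am974, Cm1007 and Gm1126, out of 18 such sites in 18S and 55 in 18S and 25S together. The other 496 nucleotides served as the background of the same assay. Base A made up 130 of the 500 nucleotides, C 88, G 131 and U 151, and the GC content was 43.8% against 44.8% over all of 18S.

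The study asked how RNA helicases bear on snoRNA complexes and on rRNA methylation in Saccharomyces cerevisiae. Each of 4 groups had 2 libraries, called A and B, and the series states biological duplicates. The groups were a wild type (WT), a strain labelled Delta_Dbp3, and a pGAL PRP43 strain, labelled Gal (PRP43_Gal) or Glu (PRP43_Glu). The labels name media with glucose or galactose for the study as a whole and do not give the medium of WT or Delta_Dbp3. In the PRP43 strain, carbon source and promoter state, which the labels tie together, cannot be told apart. The labels speak of neither clones nor pooling, and give RNA from exponentially growing whole cells.

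Box C/D snoRNPs place 2'-O-methyl groups on rRNA: the guide RNA pairs with the pre-rRNA next to a box D or D' motif, and the protein Nop1 (fibrillarin in animals) methylates the ribose of a nucleotide at a fixed distance. The central domain of 18S forms the platform of the small subunit, and its sites are modified on the pre-rRNA before the subunit matures. As general knowledge of yeast, snR53 guides Am796, snR54 guides Am974, snR79 guides Cm1007 and snR41 guides Gm1126. Prp43 is a DEAH-box helicase that acts in splicing and in ribosome assembly, and Dbp3 is a DEAD-box helicase of pre-rRNA processing.

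RiboMeth-seq reads methylation as protection: a 2'-O-methyl group keeps alkali from cleaving the bond on its 3' side, so that few fragments start or end there. The score is 1 minus the observed read ends over the read ends expected from 6 neighbours on each side, with values below 0 set to 0. A score near 1 stands for a fully protected position and a score near 0 for one that is cleaved like its neighbours.

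The 4 annotated sites are shown with 15 nucleotides on each side, from the nucleotide column of the deposited tables, written 5' to 3' as rRNA, because the score of a site is read against these neighbours. The capital marks the methylated nucleotide.
Am796: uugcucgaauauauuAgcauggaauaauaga
Am974: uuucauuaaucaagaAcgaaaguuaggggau
Cm1007: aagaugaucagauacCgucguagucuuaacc
Gm1126: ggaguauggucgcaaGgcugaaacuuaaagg
The windows around Am796 and Am974 hold 29% and 32.3% G and C, and those around Cm1007 and Gm1126 hold 41.9% and 48.4%. Am974 and Cm1007 lie 33 nucleotides apart, whereas Am796 is 178 nucleotides before Am974 and Gm1126 is 119 after Cm1007. No annotated site lies among the 6 neighbours of another.

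In WT, all 4 positions were strongly protected. Am974 had the highest mean score, 0.977 ± 0.00148 (SD, n = 2 here and below), followed by Cm1007 at 0.96 ± 0.00943, Am796 at 0.953 ± 0.0184 and Gm1126 at 0.939 ± 0.0261. The gaps between Cm1007, Am796 and Gm1126 in this order were 0.00699 and 0.0146, smaller than the spread between duplicates. The median of the 4 sites was 0.957, beside 0.955 over the 18 sites of 18S and 0.964 over all 55. In PRP43_Glu the order was Am974, Gm1126, Am796 and Cm1007, and the gap of 0.539 between the last pair exceeded the larger of their SDs, 0.0703.

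**Figure D1:**
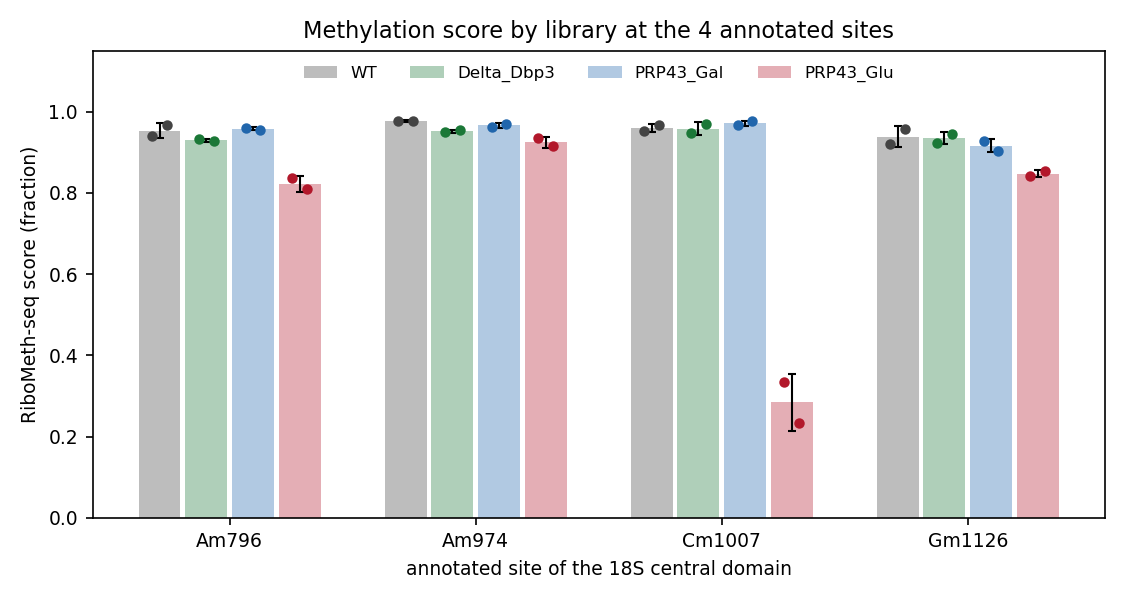
RiboMeth-seq score (fraction, vertical axis from 0) at the 4 annotated sites in WT, Delta_Dbp3, PRP43_Gal and PRP43_Glu; bars are means of 2 libraries, error bars the SD, and points the single libraries. At Cm1007 both PRP43_Glu libraries, at 0.334 and 0.235, lie far below the other 6 libraries.

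Comparing PRP43_Glu with PRP43_Gal asks what changed in the PRP43 strain between its media. Methylation fell at 4 of the 4 central-domain sites, by 0.687 at Cm1007, by 0.135 at Am796, by 0.0685 at Gm1126 and by 0.0415 at Am974. Of all 55 annotated sites, 31 passed as lower at an adjusted p below 0.05 (56.4%) and 0 as higher. A fall that passed was thus the more frequent outcome at annotated sites. The median change was -0.10 over the 4 sites, -0.055 over the 18 sites of 18S and -0.14 over all 55. The PRP43_Glu duplicates were both under the PRP43_Gal duplicates at 4 of the 4 sites and at 70.9% of the 55. Adjusted p-values here and below come from limma on the scores, in a fit over all 55 sites and 8 libraries. With 2 libraries against 2, an exact permutation test of a single site cannot go below 0.333.

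Cm1007, the site guided by snR79, lost most of its protection. Its score was 0.967 and 0.976 in PRP43_Gal A and B, and 0.334 and 0.235 in PRP43_Glu A and B. The other 4 libraries, WT and Delta_Dbp3, lay between 0.947 and 0.97, so the PRP43_Glu pair alone stood apart. The fall was 0.687 ± 0.0332 (SE, 95% interval from -0.77 to -0.60; limma adjusted p = 5.09e-05) and ranked first in size among the 55 sites.

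The read ends behind these scores moved in the same way. In PRP43_Gal A and B, 88 and 92 read ends fell at Cm1007, where 2637 and 3873 were expected from the neighbours. In PRP43_Glu A and B, 591 and 897 fell there, where 887 and 1172 were expected. The site thus had 66.6% and 76.5% of the expected read ends in PRP43_Glu, with exact Poisson 95% intervals of 61.3% to 72.2% and 71.6% to 81.7%. These intervals cover counting error only, and duplicates differed by far more than that. Over the 500 nucleotides, the chi-square per degree of freedom between the read ends of duplicates ran from 57.6 in PRP43_Glu to 665 in WT. The PRP43_Glu intervals at Cm1007 did not overlap those of any library of the other groups, of which the highest bound was 6.84% in Delta_Dbp3 A. Relative to the expected read ends, the edgeR fit gave a 25.1-fold rise from PRP43_Gal to PRP43_Glu (adjusted p = 0.000137).

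Both kinds of read end carried the change at Cm1007. The score from 5' ends alone went from 0.984 ± 0.000239 in PRP43_Gal to 0.226 ± 0.05 in PRP43_Glu, and that from 3' ends alone from 0.943 ± 0.0242 to 0.343 ± 0.216. Among the 496 other nucleotides, 101 scored above Cm1007 in PRP43_Glu A and 147 in PRP43_Glu B. In each library of the other groups, no more than 1 scored above the lowest of the 4 sites. The single such nucleotide was G853 in WT A (0.923 there), named after its values were seen.

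Am796, guided by snR53, fell from 0.958 ± 0.00355 to 0.823 ± 0.0195. Single libraries were at 0.961 and 0.956 in PRP43_Gal and at 0.837 and 0.809 in PRP43_Glu. WT stood at 0.94 and 0.966 and Delta_Dbp3 at 0.933 and 0.927, so no library of another group reached down to the PRP43_Glu values. The fall was 0.135 ± 0.0152 (SE; limma adjusted p = 0.00101). Observed read ends were 3.91% and 4.41% of the expected ones in PRP43_Gal and 16.3% and 19.1% in PRP43_Glu. The 5' ends made up 80.2% and 78.4% of the read ends at this position in PRP43_Gal, but 35.9% and 52.7% in PRP43_Glu. The score fell from both kinds of end, to 0.829 ± 0.0303 from 5' ends and to 0.82 ± 0.0119 from 3' ends.

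Gm1126, guided by snR41, stood at 0.927 and 0.904 in PRP43_Gal and at 0.841 and 0.853 in PRP43_Glu. The groups did not overlap, and the fall was 0.0685 ± 0.0181 (SE; limma adjusted p = 0.0211). WT was at 0.92 and 0.957, and Delta_Dbp3 at 0.924 and 0.945. The 43 and 104 read ends in PRP43_Gal were 7.27% and 9.57% of the expected ones, against 15.9% and 14.7% from 79 and 133 read ends in PRP43_Glu. The call was lost with edgeR on the read ends (adjusted p = 0.0783), with DESeq2, on log2 odds (0.101) and with 5' or 3' ends alone. Without PRP43_Gal A, PRP43_Glu A or PRP43_Glu B, limma gave adjusted p-values of 0.112, 0.0891 and 0.0539.

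Am974, guided by snR54, showed the smallest fall of the 4, from 0.962 and 0.971 in PRP43_Gal to 0.934 and 0.915 in PRP43_Glu. WT had 0.976 and 0.978, and Delta_Dbp3 had 0.949 and 0.954, which lay between the PRP43_Glu and the PRP43_Gal libraries. The fall from PRP43_Gal was 0.0415 ± 0.0117 (SE; limma adjusted p = 0.026). Only 9 to 59 read ends per library fell on Am974. The call was lost without WT A or B (adjusted p = 0.0626 each), PRP43_Gal A (0.0791), PRP43_Gal B (0.129) or PRP43_Glu B (0.0781), with 2 neighbours on each side (0.0908), in a fit of PRP43_Gal and PRP43_Glu alone (0.099), with the replicate block (0.0666) and from 3' ends alone (0.938). The edgeR test on read ends gave a 2.24-fold rise with an adjusted p of 0.00568.

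**Figure D2:**
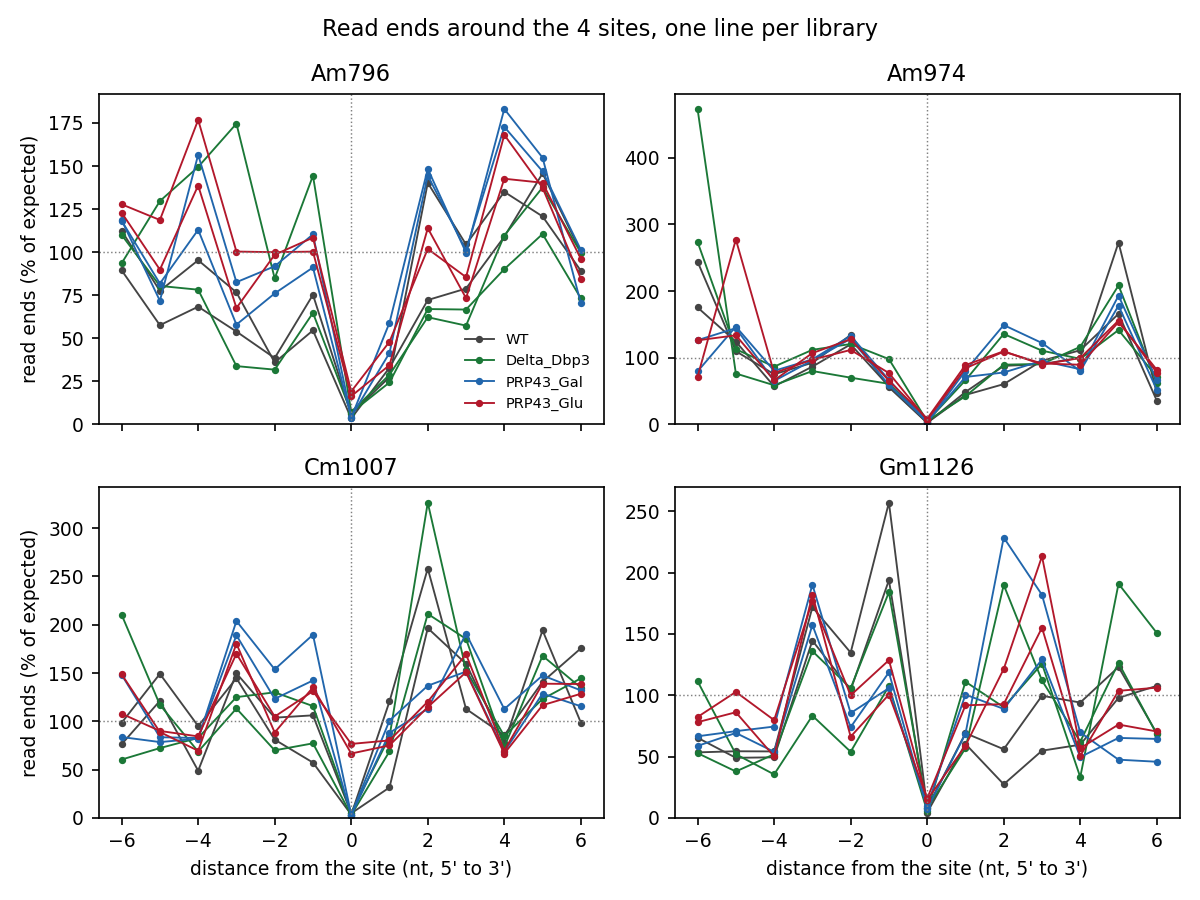
Read ends as a percentage of the expected read ends (vertical axis) from 6 nucleotides before to 6 after each site (horizontal axis), with a line for each of the 8 libraries coloured by group. The dip at distance 0 is present in all 8 libraries at Am796, Am974 and Gm1126, while at Cm1007 the PRP43_Glu lines stay at 66.6% and 76.5%.

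Set against WT, PRP43_Glu passed as lower at 4 of the 4 sites, and at 69.1% of the 55. Its duplicates were both under the WT duplicates at 4 of 4, against 92.7% of the 55. The falls were 0.676 at Cm1007 (adjusted p = 5.55e-05), 0.13 at Am796 (0.00105), 0.0912 at Gm1126 (0.00712) and 0.0522 at Am974 (0.0107). The call at Am974 was lost without WT A (adjusted p = 0.0522) or WT B (0.058), with 2 neighbours on each side (0.0525) and from 3' ends alone, where the change was -0.026 (0.546). At Gm1126 it was lost from 3' ends alone, where the change was -0.041 (0.313). The deposited tables of WT and of the PRP43 strain list different further reference RNAs, and the effects of strain, culture and table cannot be told apart here.

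Under the label Gal, the PRP43 strain did not differ detectably from WT at these sites. With limma, 0 of the 4 sites passed, 0.0% of the 55 passed as lower, and 0 of the 4 had an unadjusted p below 0.05. The edgeR and DESeq2 tests on read ends also called 0 of the 4. The differences were 0.0053 at Am796, -0.011 at Am974, 0.011 at Cm1007 and -0.023 at Gm1126. Their 95% intervals ran from -0.033 to 0.044, from -0.040 to 0.019, from -0.072 to 0.095 and from -0.068 to 0.023, in this order. These intervals pool the spread of all 4 groups, and at Cm1007 the PRP43_Glu duplicates had the largest SD, 0.0703. The PRP43_Gal duplicates were both under the WT duplicates at 1 of the 4 sites, Am974, and at 43.6% of the 55.

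The comparison of Delta_Dbp3 with WT asks what the loss of Dbp3 changed. None of the 4 central-domain sites passed with limma (0 of 4, and 0 with an unadjusted p below 0.05), while 27.3% of the 55 sites passed as lower. Cm1007 was at 0.953 and 0.967 in WT and at 0.947 and 0.97 in Delta_Dbp3, a difference of -0.0017 (95% interval from -0.085 to 0.082; adjusted p = 0.98). Gm1126 differed by -0.0041 (95% interval from -0.050 to 0.042; adjusted p = 0.911). These groups overlapped at both sites. The intervals pool the spread of all 4 groups. At Cm1007 the SD was 0.0703 in PRP43_Glu, against 0.00943 in WT and 0.0168 in Delta_Dbp3.

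Am796 and Am974 were the 2 sites where the Delta_Dbp3 duplicates were both under the WT duplicates, as at 69.1% of the 55 sites. Am796 differed by -0.023 (95% interval from -0.062 to 0.015; limma adjusted p = 0.344) and Am974 by -0.026 (from -0.055 to 0.0038; adjusted p = 0.19). At Am974 the site had 2.4% and 2.19% of the expected read ends in WT and 5.08% and 4.63% in Delta_Dbp3. The count test (edgeR) on the 55 sites called this 2.11-fold rise (adjusted p = 0.0204), as did limma on log2 odds (0.0492), whereas DESeq2 called 0 of the 4. The median change over the 4 sites was -0.014, beside -0.024 over the 18 sites of 18S and -0.033 over all 55.

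Whether both changes differed was tested as PRP43_Glu minus PRP43_Gal less Delta_Dbp3 minus WT, and this passed at 2 of the 4 sites and at 41.8% of the 55. Cm1007 fell further in the PRP43 strain by 0.685 ± 0.0469 (SE; limma adjusted p = 0.000473) and Am796 by 0.112 ± 0.0216 (adjusted p = 0.0113). Gm1126 gave a difference of -0.064 (adjusted p = 0.108) and Am974 one of -0.016 (adjusted p = 0.507), and neither passed. For Am796 the call was lost with edgeR (adjusted p = 0.117), with DESeq2, on log2 odds and with 5' ends alone. The same pair of library barcodes was used for Delta_Dbp3 and PRP43_Glu, and other barcodes for WT and PRP43_Gal. Barcode and group cannot be told apart within either comparison.

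The nucleotides next to the sites show how local the protection was. Directly 3' of Am796, G797 had mean scores of 0.698, 0.735, 0.498 and 0.588 in WT, Delta_Dbp3, PRP43_Gal and PRP43_Glu. C975, directly 3' of Am974, scored 0.537, 0.459, 0.243 and 0.135 in the same order of groups. The background medians were between 0.0954 and 0.173 by group over all bases, and between 0.202 and 0.311 at G. At G797 all 4 means lay well above both. At C975 the PRP43_Glu libraries were at 0.159 and 0.111, beside background medians in that group of 0.0954 over all bases and 0.043 at C. On the 5' side of Am796, U794 had means of 0.628, 0.418, 0.161 and 0.00769 in this order, with the Delta_Dbp3 libraries apart at 0.683 and 0.153. U795 and A793 had means of at most 0.351 in all 4 groups. Their Delta_Dbp3 libraries A and B were also apart, at 0.353 and 0 for U795 and at 0.662 and 0 for A793.

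Around Cm1007, most flanking scores were low, and the WT duplicates disagreed at the 2 nearest nucleotides. G1008 scored 0.685 and 0 in WT A and B, and its means were 0.237, 0.0602 and 0.224 in Delta_Dbp3, PRP43_Gal and PRP43_Glu. C1006 scored 0 and 0.428 in WT A and B, 0 and 0.228 in Delta_Dbp3 A and B, and 0 in the 4 PRP43 libraries. U1009, C1010 and U1004 scored 0 in all 8 libraries, and A1005 had at most 0.301 in any library. At Gm1126, C1128 scored 0.583 in WT and between 0.0362 and 0.0556 in the other groups, and A1125 scored 0 in all 8 libraries. Around Am974, A973 had means of 0.437, 0.207, 0.372 and 0.288 in WT, Delta_Dbp3, PRP43_Gal and PRP43_Glu, with the Delta_Dbp3 libraries apart at 0.392 and 0.0213. Its G972 neighbour had a mean of 0 in every group but Delta_Dbp3, where single libraries were at 0.3 and 0.

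**Figure D3:**
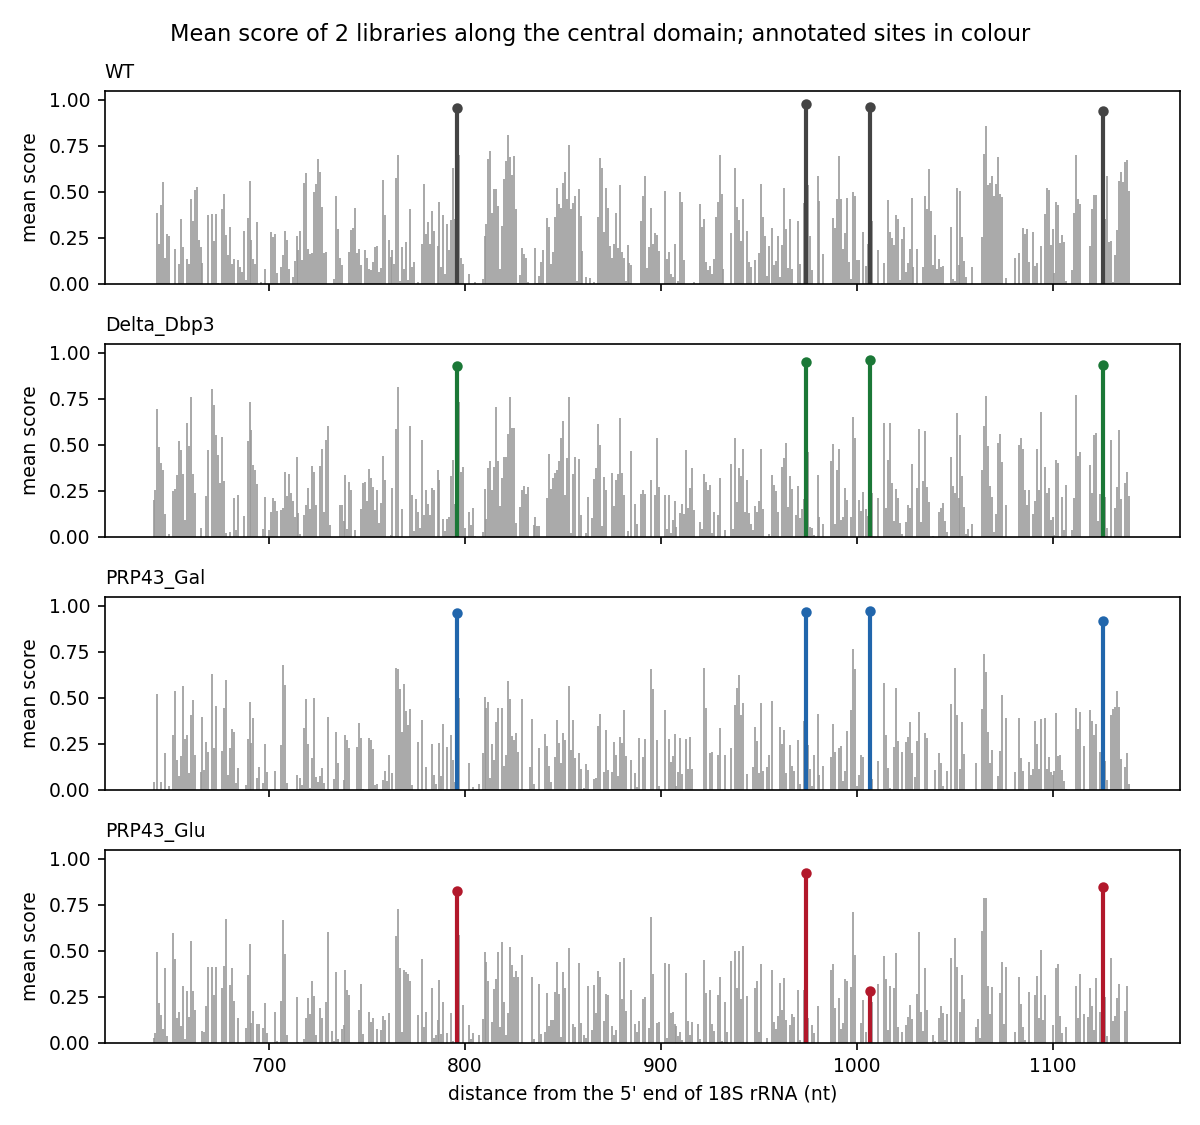
Mean score of 2 libraries (vertical axis, fraction) at each of the 500 nucleotides (horizontal axis, distance from the 5' end of 18S) in the 4 groups, with the annotated sites in colour and the other nucleotides in grey. In PRP43_Glu the coloured line of Cm1007 falls to 0.284, within the grey background.

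Between 413379 (PRP43_Glu A) and 1209298 (PRP43_Gal B) read ends fell on the 500 nucleotides, 20.6% to 26.7% of those on 18S. The median per nucleotide ran from 733.5 to 2176. At most 3 nucleotides per library had fewer than 50 read ends.

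The background itself differed between groups. The median score of the 496 other nucleotides was 0.14 and 0.164 for the WT pair and 0.15 and 0.0985 for the Delta_Dbp3 pair. For the PRP43 strain it was 0.0774 and 0.0724 under the label Gal, against 0.0835 and 0.0584 under Glu. All 4 libraries of the PRP43 strain thus had a lower median than the 4 others. A score of at least 0.5 in both libraries was reached by 38 of them in WT and 28 in Delta_Dbp3, but by 19 and 17 in PRP43_Gal and PRP43_Glu. Across the 496 nucleotides, Pearson's r between the scores of duplicates was 0.558 in WT and 0.458 in Delta_Dbp3, against 0.692 and 0.729 in PRP43_Gal and PRP43_Glu. Between PRP43_Gal and PRP43_Glu libraries it was 0.668 to 0.793, and between WT and PRP43_Glu 0.24 to 0.341. WT and PRP43_Gal libraries gave 0.296 to 0.419. Delta_Dbp3 libraries gave 0.394 to 0.451 with WT, 0.349 to 0.508 with PRP43_Gal and 0.383 to 0.578 with PRP43_Glu, so some exceeded the 0.458 of the Delta_Dbp3 duplicates. These are descriptions across neighbouring nucleotides that share libraries and expected values.

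Read ends were spread unevenly along the region. The 50 nucleotides from 691 to 740 took 21.5% and 31.5% of the region's read ends in the WT pair and 42.7% and 22.8% in the Delta_Dbp3 pair. Their share was 15.7% and 13.8% under PRP43_Gal and 11.8% and 14.2% under PRP43_Glu, below both other groups. The stretch from 991 to 1040, which holds Cm1007, took between 2.72% and 6.67% in the WT and Delta_Dbp3 libraries. In the PRP43 libraries its share was 8.34% and 9.09% (Gal) and 7.56% and 7.71% (Glu).

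**Figure D4:**
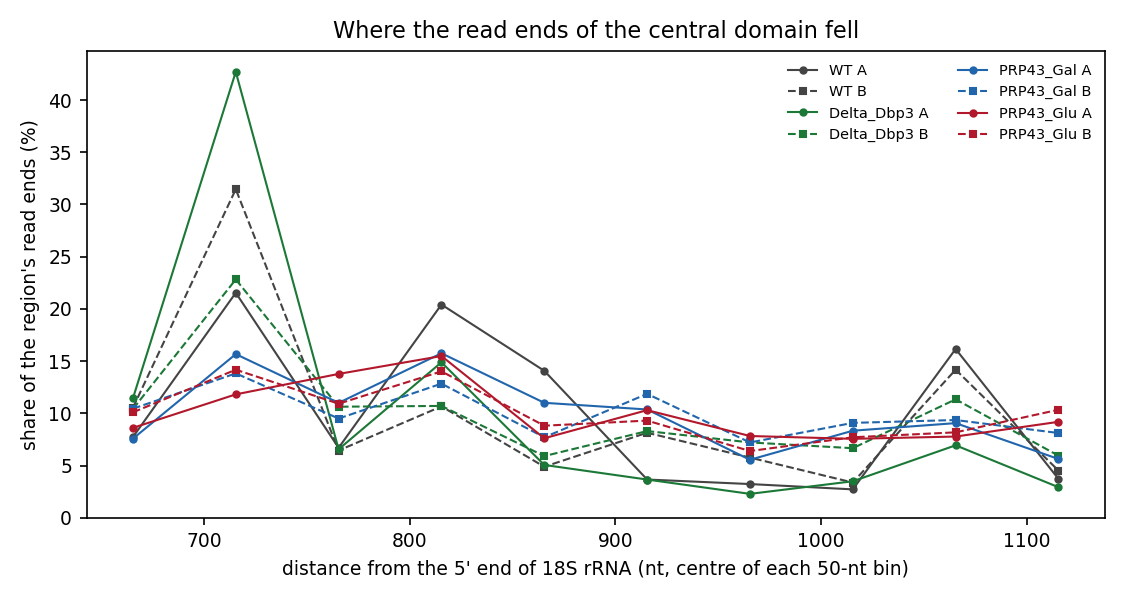
Share of the region's read ends (%, vertical axis from 0) in 10 bins of 50 nucleotides (horizontal axis, distance of the bin centre from the 5' end of 18S), with a line for each of the 8 libraries. The bin from 691 to 740 separates WT and Delta_Dbp3, at 21.5% or more, from the PRP43 libraries, at 15.7% or less.

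Background scores also depended on the base. In WT the median of the mean score was 0.225 at G, 0.174 at C, 0.145 at A and 0.133 at U. At U it was 0.0621 in Delta_Dbp3 and 0 in both PRP43 groups, and at C it was 0.188 in Delta_Dbp3, 0.0344 in PRP43_Gal and 0.043 in PRP43_Glu. At G it lay between 0.202 and 0.311 in the 4 groups. No test was run on these medians.

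A scan for changes outside annotated sites tested the read ends at every nucleotide of 18S and 25S with edgeR, taking the expected read ends as the offset. A nucleotide passed at an adjusted p below 0.05 and a mean score difference of at least 0.1. All 496 other nucleotides of the region were among the 5117 unannotated ones tested, and Am974 had too few read ends to enter. From PRP43_Gal to PRP43_Glu, 0 of the 496 passed, as did 0.0% of the 5117, and 9 of the 496 had an unadjusted p below 0.05. DESeq2 also called 0. Scores of single background nucleotides still moved, from -0.425 to 0.302 with a median change of 0. Of the 496, 55 fell by at least as much as Am796 (0.135). Both PRP43_Glu libraries were below both PRP43_Gal libraries at 13.7% of the 496 and above them at 8.67%. In the same scan, Cm1007 passed (adjusted p = 0.00193), and Am796 (0.0898) and Gm1126 (0.999) did not.

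From WT to Delta_Dbp3, 2 of the 496 passed, both lower, against 0.215% of the 5117. They were U663 and U725, shown with the same flanks and the capital at the named nucleotide because their bases and neighbours can be set beside those of the annotated sites.
U663: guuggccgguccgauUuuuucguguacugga
U725: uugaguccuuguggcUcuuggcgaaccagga
U725 scored 0.719 and 0.642 in WT and 0 in both Delta_Dbp3 libraries (edgeR adjusted p = 0.0222). It was also at 0 and 0.0888 in PRP43_Gal and at 0.00184 and 0 in PRP43_Glu. U663 scored 0.549 and 0.503 in WT and 0 in the 6 other libraries (adjusted p = 0.0222). At both nucleotides the WT libraries scored above all others. Scores set to 0 do not show differences among the other groups, and Delta_Dbp3 was not tested against the PRP43 strain. G730, named after its values were seen, enters the expected read ends of U725. It had 5720 and 12621 read ends in WT and 4320 and 1681 in Delta_Dbp3. Its score rose from 0 in both WT libraries to 0.656 and 0.55 in Delta_Dbp3. This opposite change did not pass (edgeR adjusted p = 0.0571). How far such neighbours set the WT scores of U725 was not tested. With 2 neighbours on each side, which leaves out G730, 0 of the 496 passed. The count of 2 went to 0 without WT A, WT B, PRP43_Glu A or PRP43_Glu B, to 1 without PRP43_Gal A or B, and to 14 and 8 without Delta_Dbp3 A and B. DESeq2 called 31.

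PRP43_Gal differed from WT at 12 of the 496 nucleotides. Of these 11 were lower and 1, G834, named after its values were seen, was higher. The background was 1.74% of the 5117 in either direction, 1.33% lower and 0.41% higher. Among the 12 that passed, the 5 with the largest difference in score were U725, C870, C1037, C1072 and U1136. Larger changes that did not pass were -0.653 at U813 and 0.647 at G1050, both named after their values were seen. C870 scored 0.566 and 0.694 in WT and 0 in both PRP43_Gal libraries. C1072 scored 0.653 and 0.72 in WT, and 0 and 0.147 in PRP43_Gal. The 5 passing nucleotides were picked by the size of their difference from WT, which favours high WT and low PRP43_Gal scores. Their scores in PRP43_Gal were at most 0.147.

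PRP43_Glu differed from WT at 23 of the 496, 17 lower and 6 higher, against 2.79% of the 5117 in either direction, 2.19% lower and 0.606% higher. Among the 23 that passed, the 5 with the largest difference were C1072, U725, U822, C870 and C1037. U813 changed by more, -0.719, and did not pass. Of the 17 lower ones 10 were U and 5 were C, and of the 6 higher ones 4 were G. Of all 496, 30.4% were U, 17.5% C and 26.2% G, and no test was run on these counts. In PRP43_Gal and PRP43_Glu against WT, some passing nucleotides lay within 6 of each other, such as U1136 and A1137. Each enters the expected read ends of the other, so the calls are not independent. G1032 and C1037, also this close, changed in opposite directions in PRP43_Glu, by 0.6 and -0.625. A1137 and G1032 were named after their values were seen. Leaving out any 1 of the 8 libraries left between 0 and 36 nucleotides for PRP43_Gal and between 0 and 50 for PRP43_Glu, so both counts depended on single libraries. Both comparisons use the same 2 WT libraries.

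The nucleotides outside the annotation with the highest scores in WT were C1066, U822, G1112, G991 and A1065, ordered by the lower of both WT libraries. They are printed because a high score without an annotated methyl group shows the upper reach of the background. Their choice by WT score favours lower scores in the other groups.
C1066: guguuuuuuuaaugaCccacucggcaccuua
U822: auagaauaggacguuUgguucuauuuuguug
G1112: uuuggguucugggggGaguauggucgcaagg
G991: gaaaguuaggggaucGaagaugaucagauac
A1065: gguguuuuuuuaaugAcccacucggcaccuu
C1066 and A1065 are neighbours and share a window. C1066 scored 0.842 and 0.874 in the WT pair and 0.787 and 0.742 in the Delta_Dbp3 pair. In PRP43_Gal it was at 0.627 and 0.652, and in PRP43_Glu at 0.825 and 0.751. The PRP43_Gal pair thus lay below the other 6 libraries, and its mean score was 0.218 below that of WT, a difference that did not pass (edgeR adjusted p = 0.072). A1065 was between 0.558 and 0.825 in all 8 libraries.

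U822 scored 0.832 and 0.781 in the WT pair and 0.732 and 0.389 in the Delta_Dbp3 pair. In PRP43_Gal it was at 0.522 and 0.657, and in PRP43_Glu at 0.166 and 0.162. Its mean of 0.164 ± 0.00288 in PRP43_Glu was lower than in WT (edgeR adjusted p = 0.0296), and the difference from PRP43_Gal did not pass (adjusted p = 0.999). G991 scored 0.686 and 0.697 in WT and 0.484 and 0.467 in Delta_Dbp3. In PRP43_Gal it was at 0.21 and 0.242, and in PRP43_Glu at 0.303 and 0.188. Against WT, PRP43_Gal (edgeR adjusted p = 0.0483) and PRP43_Glu (0.0398) passed at G991, and Delta_Dbp3 (0.21) did not. G1112 scored 0.698 and 0.703 in WT and 0.394 and 0.225 in PRP43_Glu, and did not pass in any comparison of the scan. As these nucleotides were chosen for high scores in the same WT libraries, their comparisons with WT are biased towards a fall.

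Pseudouridines, which box H/ACA snoRNPs make, carry no 2'-O-methyl group by themselves. Of the positions known as pseudouridines of yeast 18S, U759, U766 and U999 lie in the region. U766 scored between 0.603 and 0.875 in all 8 libraries. U999 scored between 0.432 and 0.704. U759 scored 0 and 0.753 in WT A and B and at most 0.352 elsewhere, so its WT duplicates disagreed. In the scan, none of the 3 passed in any of the 4 comparisons, with edgeR adjusted p-values of 0.28 or more.

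**Figure D5:**
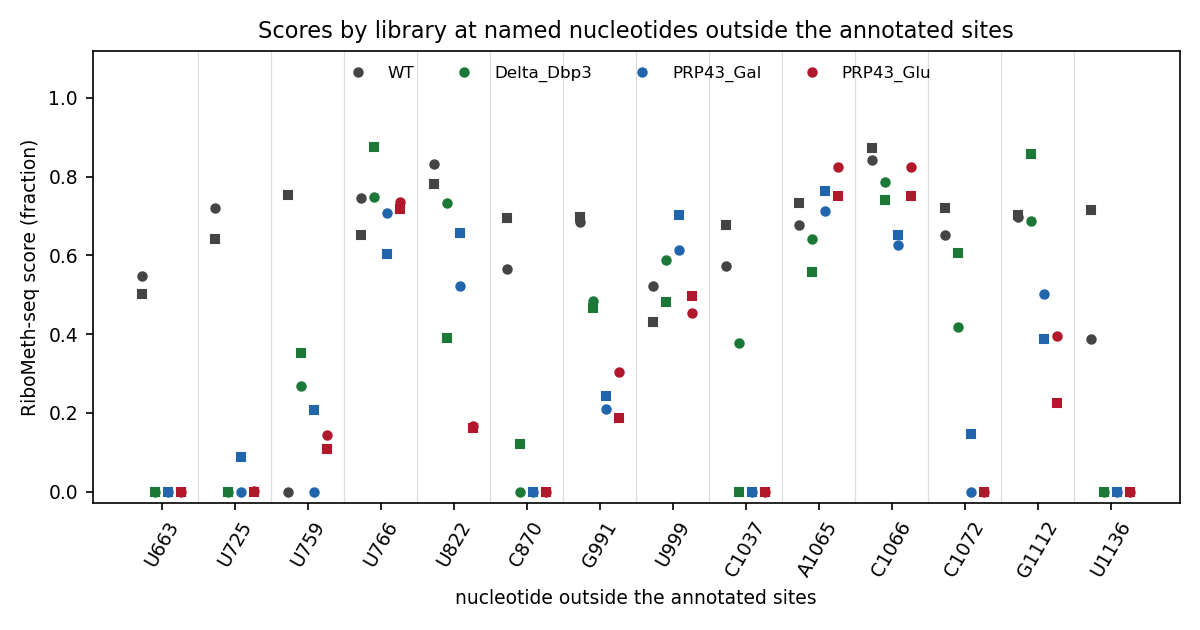
RiboMeth-seq score (fraction, vertical axis) in the 8 libraries at the named nucleotides outside the annotated sites, ordered along 18S (horizontal axis), with circles for replicate A and squares for replicate B. U663, U725, C870, C1037 and G991 are above 0.5 in both WT libraries and in no other library. U766, C1066 and A1065 are above 0.5 in all 8 libraries.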

How the data were processed

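Ribose methylation was measured by RiboMeth-seq in whole cell RNA of 8 yeast libraries. Of the processing tools, cutadapt 2.0 and Bowtie2 2.3.4.1 are known from the submitters' processing notes, and their parameters were not given in the sources used. The deposited counts, per the file headers, are reads with a 5' end or a 3' end at each nucleotide and their sum, and the authors' score is a fraction made from these counts. Recomputed scores differed from the deposited ones by at most 5e-10 over 41376 values. Of the 220 deposited group means, 6 could be matched only by taking 1 of the 2 libraries from 5' ends alone, 0 of them in the region, and the score test used those 6 library values as matched. Libraries were grouped by their titles.

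The score test over the 55 sites was limma 3.58.1 (R 4.3.3, all 8 libraries, no block), with Benjamini-Hochberg adjustment within each comparison at 0.05. The scan used edgeR 4.0.16 (quasi-likelihood) on sums of ends with the expected ends as offset, at a mean of at least 50 ends, over 5167 nucleotides. Alternatives included DESeq2 1.42.0, log2 odds, other neighbours, single ends and the omission of each library.

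The named nucleotides are the 4 sites, 3 neighbours on each side, at most 5 passing nucleotides per scan by size of score difference, the 5 others with the highest lower WT score at 50 or more expected ends, and U759, U766 and U999. The region and these lists were chosen with earlier results of these data known. Guide assignments and pseudouridines are general knowledge. Positions follow the rRNA numbering of the files, without a genome. The total per library on 18S and 25S was 5557319 to 14191112 ends, and Poisson intervals at 95% cover counting error only, since reads carry no molecular identifiers in the files.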

Additional observations from a re-analysis of the deposited data

Results flagged for a closer look

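At Cm1007 and Am796 the change in the PRP43 strain differed from the change on loss of Dbp3. The limma test of this difference gave -0.69 at Cm1007 (adjusted p = 0.000473) and -0.11 at Am796 (adjusted p = 0.0113), on the score scale, with PRP43_Glu minus PRP43_Gal less Delta_Dbp3 minus WT. At Cm1007 the call held under 18 of 18 alternatives. At Am796 it held under 14 of 18, with adjusted p-values from 0.0083 to 0.129. Groups of 2 libraries are too small for a check of single outlying libraries.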

How the results depend on the processing

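Of the alternatives run, the falls of Cm1007 and Am796 from PRP43_Gal to PRP43_Glu passed under 19 of 19 each, that of Gm1126 under 11 of 19 and that of Am974 under 10 of 19. Over the changes of single sites that passed, 162 alternative values kept call and direction and 26 lost the call, with 0 reversals. Among changes that had not passed, 12 alternative values had the other sign, and 0 of these 12 passed.

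For Delta_Dbp3 against WT, 1 of the 4 sites passed on log2 odds and 1 with edgeR, against 0. From 3' ends alone, 2 of 4 passed from PRP43_Gal to PRP43_Glu and 2 of 4 against WT. The difference between both changes passed at 1 site on log2 odds, 1 with edgeR, 1 with DESeq2 and 1 from 5' ends. From 3' ends alone, uncalled differences turned sign: 0.016 for Am796 and 0.027 for Gm1126 in Delta_Dbp3 against WT, -0.030 for Cm1007 and 0.037 for Gm1126 in PRP43_Gal against WT, and 0.050 for Am974 in the difference between both changes. Cm1007 in Delta_Dbp3 against WT was 0.0025 with 2 neighbours and 0.025 from 5' ends. With each library left out, it ran from -0.014 to 0.010, Gm1126 in the same comparison from -0.023 to 0.014, and Am796 in PRP43_Gal against WT from -0.0078 to 0.018.

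Scan counts outside the sites, which were 2, 12 and 23 for Delta_Dbp3, PRP43_Gal and PRP43_Glu against WT, were 31, 49 and 63 with DESeq2, and 0, 22 and 45 with TMM factors. With 2 neighbours they were 0 and 12 for Delta_Dbp3 and PRP43_Glu. With each library left out, the number of sites ranged from 2 to 4 (PRP43_Glu against PRP43_Gal), and the scan counts from 0 to 14, 0 to 36 and 0 to 50. The cause of these changes was not tested.

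Same-lettered libraries share a letter, and the labels state no pairing. Deviations of same-lettered libraries correlated between -0.276 and 0.327 over 6 pairs of groups, across the 55 sites. With the replicate block, Am974 from PRP43_Gal to PRP43_Glu no longer passed (adjusted p = 0.0666), 3 of 4 sites passed there, and the scan counts were 0, 2 and 9. No other call at the 4 sites changed.

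Few read ends limit Am974 and Gm1126, with 9 to 59 and 20 to 133 per library. With 2 libraries a group, a difference that did not pass is not shown to be absent.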
